A study of Mus musculus with 3 samples.

Results

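The genes described here are 10 receptors of Wnt ligands: the Frizzled genes Fzd1, Fzd2, Fzd4, Fzd7 and Fzd8, the co-receptor genes Lrp5 and Lrp6, the Ror kinase genes Ror1 and Ror2, and Ryk. They were taken as a family of named genes, with earlier results of these data already known, so the counts of genes with a peak are a description and not an independent test. Peaks of TBX5, a T-box transcription factor of heart, forelimb and lung mesenchyme, were counted for a gene in either of 2 cases. The summit lay inside the gene, or an end of the gene was the nearest end of a protein-coding gene, within 100 kb. By this rule 64 of 28381 deposited peaks belonged to the 10 genes (exact 95% Poisson interval for the count, 49.3 to 81.7), and none belonged to more than 1 of them. The peaks came from chromatin immunoprecipitation and sequencing (ChIP-seq) of whole lungs from CD-1 mouse embryos at E14.5, with 2 libraries made with 5 µg of an antibody to TBX5 and 1 input library. No genotype or treatment is named in the labels, and 1 whole lung was used per replicate.

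Wnt proteins are secreted signals that bind the cysteine-rich outer domain of Frizzled receptors. With LRP5 or LRP6 as co-receptor, the signal stabilizes beta-catenin, which enters the nucleus and acts with TCF/LEF factors on target genes. ROR1, ROR2 and RYK are single-pass receptors that also bind Wnts and are known mainly from branches of the pathway that do not use beta-catenin, such as those that set cell polarity and movement. In the lung, Wnt signals pass between epithelium and mesenchyme during specification, branching and growth, and TBX5 is known to act upstream of Wnt ligand genes in the lung mesenchyme.

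The data used here were a single peak list without values of single libraries, and no source used here says which libraries went into it, so no spread between the ChIP libraries could be measured and no difference below was tested. The depth of the libraries is unknown, and intervals cover counting error only. The titles name lung for all 3 libraries, while the source field names heart for 2 of them, ChIP library 2 and the input. Of marker genes, 8 of 8 of lung mesenchyme, 5 of 8 of lung epithelium, 3 of 5 of endothelium and 4 of 10 of heart muscle had a peak, and 6, 2, 2 and 3 of them had a strong one. For comparison, the shares in the whole protein-coding set were 41.7% for any peak and 11.9% for a strong one. A peak list holds no expression, so the marker counts do not show which tissue was used. The part of the heart label in the results was not tested. Which cells of the whole lung carried a peak is also unknown.

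TBX5 peaks were listed at 9 of the 10 receptor genes, where 41.7% of all 21631 protein-coding genes had a peak by the same rule. A strong peak, one of the 5000 with the highest −log10 q, was present at Ror1, Ror2, Ryk, Lrp6 and Fzd1. These are 5 of the 10 genes, against 11.9% of all protein-coding genes. The strongest peaks of the genes, in order of −log10 q, had folds of 84.7 at Ror1, 37.0 at Ror2, 28.7 at Ryk, 17.9 at Fzd1 and 14.1 at Lrp6. Lower came Fzd2 (7.80-fold), Fzd7 (9.46-fold), Lrp5 (7.17-fold) and Fzd4 (5.40-fold), while Fzd8 had no peak. The fold compares the ChIP signal at a summit with the background around it. Both the fold and −log10 q are values of the authors' peak caller, and no source used here says if that background was the input library. In 9 of the 9 genes with a peak, the same peak had the highest −log10 q and the highest fold. With no error for any peak, it cannot be said which neighbours in this order differ.

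As a set, the peaks of the receptor genes had values close to those of the whole list. Their median fold was 5.79 (quartiles 5.09 and 9.10, range 4.17 to 84.7), beside a median of 6.27 for all peaks (quartiles 5.07 and 9.22). Strong peaks made up 13 of the 64 (20.3%, exact 95% Clopper-Pearson interval 11.3 to 32.2%), beside 17.6% of all peaks. The high values therefore sat in a few peaks of a few genes. At Ror1 the strongest peak had 5.99 times the fold of the second, at Ror2 2.28 times and at Ryk 1.91 times.

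**Figure D1:**
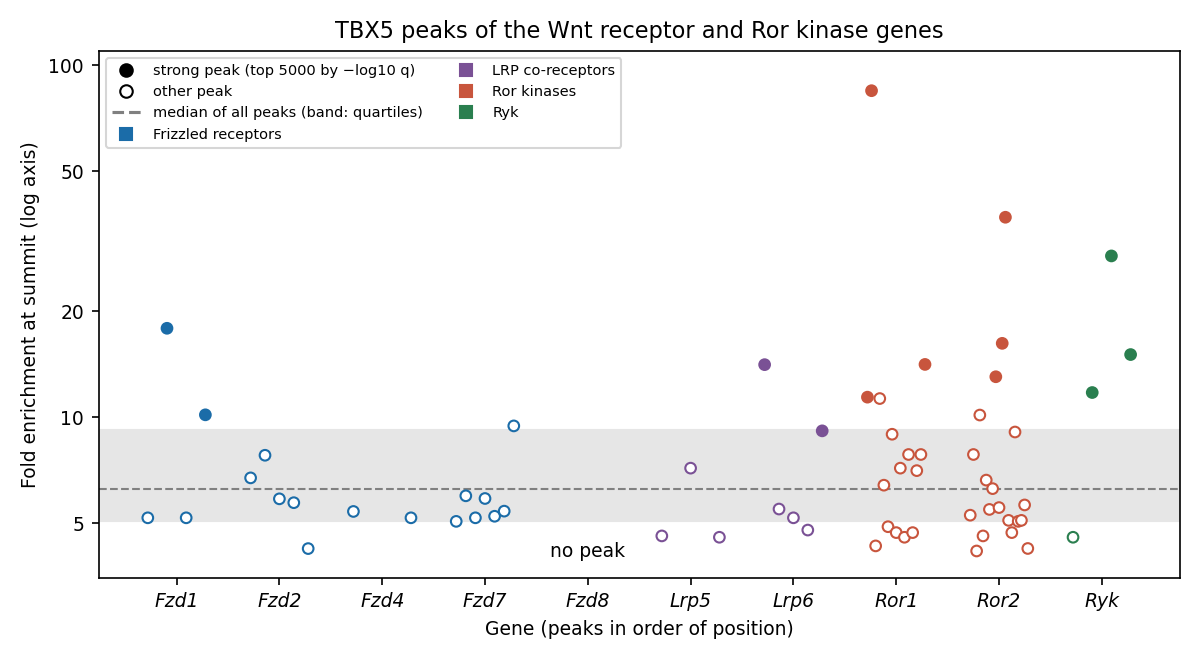
Fold enrichment at the summit (log axis) of each TBX5 peak of the 10 receptor genes, in order of position within a gene. Filled points are strong peaks, the dashed line is the median of all 28381 peaks (6.27) and the grey band their quartiles. Ror1, Ror2 and Ryk hold the 3 highest points, at 84.7, 37.0 and 28.7-fold, and most points of the other genes lie within or close to the band.

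Ror1, which encodes a receptor tyrosine kinase family member that binds WNT5A, held 15 peaks, all inside its body of 349 kb (chromosome 4, 100095791 to 100444806). Its strongest peak spanned chromosome 4 from 100101548 to 100102656, was 1109 bp wide, and ranked 10 in the whole list by −log10 q (319). Its summit lay 6.33 kb downstream of the annotated gene start. A second strong peak of 11.4-fold lay beside it, with 62 bp between the edges of the peaks and 794 bp between the summits. The third strong peak, of 14.1-fold, lay at the other end of the gene, 340.005 kb from the start and 9.01 kb before the last base. The other 12 peaks had folds from 4.31 to 11.3 and were scattered over the gene. No Ror1 peak lay within 1 kb of either end, so the peak nearest to the start, at 5.54 kb, was not at the annotated promoter. Of the 15 summits, 5 fell in the part of the gene nearest to the start when its length was cut in 3, 4 in the middle part and 6 in the last. In the middle part the highest fold was 8.95. Among all protein-coding genes, Ror1 ranked 6 by its strongest peak and 111 by its number of peaks.

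Ror2, whose loss in mice causes short limbs and breathing failure at birth, carried more peaks than any of the other 9 genes, 19 in all, with 17 inside its body of 177 kb (chromosome 13, 53109317 to 53286124, minus strand). The strongest spanned chromosome 13 from 53262360 to 53263260 (37.0-fold, −log10 q of 118, rank 283) and lay 23.2 kb downstream of the gene start. Strong peaks of 16.2-fold at 36.95 kb and of 13.0-fold at 80.8 kb followed further into the gene. A peak of 10.2-fold at 123 kb ranked 5444 by −log10 q, just outside the 5000 called strong. The remaining 15 peaks had folds from 4.17 to 9.08. One of these, of 5.64-fold, lay at the gene start, with its summit 59 bp upstream. Cut in the same way, 7 of the inside summits lay in the part nearest to the start, 5 in the middle and 5 in the last, with highest folds of 37.0, 13.0 and 10.2. Ror2 ranked 217 among all protein-coding genes by its strongest peak and 58 by number. In the upper 50% of the list by −log10 q, Ror2 had 7 of its 19 peaks and Ror1 9 of its 15. About 50% of all peaks are kept by this cut by definition.

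Ryk, whose protein has an inactive kinase domain and a Wnt-binding outer domain, had fewer peaks, but 3 of its 4 were strong. They lay inside the gene of 73.4 kb (chromosome 9, 102834920 to 102908307), at 6.69 kb (11.8-fold), 29.4 kb (28.7-fold) and 57.95 kb (15.1-fold) from the start. The highest spanned chromosome 9 from 102863800 to 102864610 and ranked 738. These 3 peaks were 882, 811 and 441 bp wide. The median width was 746 bp for the 13 strong peaks of the receptor genes and 291 bp in the whole list. The only other peak of the gene, of 4.56-fold, lay 28.7 kb upstream of the start. No Ryk peak had another summit of the list within 10 kb, whereas 50.1% of all peaks did.

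The co-receptor genes differed in their strongest values. Lrp6 (chromosome 6, 134446476 to 134566913) had 5 peaks, of which 2 were strong. The highest, of 14.1-fold, lay inside the gene 48.6 kb from the first annotated base, from 134494934 to 134495786. The other strong peak, of 9.15-fold and 683 bp wide, covered the last annotated base, and its summit lay 218 bp outside the gene. The strand of Lrp6 and Lrp5 was not in the promoter windows used here. First and last base are therefore by coordinate, and either can be the gene start. A weaker peak of 4.78-fold stood beside it, 369 bp inside the gene. The remaining Lrp6 peaks, inside the gene, had folds of 5.49 and 5.18. Lrp5 (chromosome 19, 3584825 to 3686585) had 3 peaks and no strong one. They had folds of 4.60 at 27.1 kb from the first base, 7.17 at 4.85 kb from the last base and 4.56 at 61 bp outside the last base. Ranked 9846, the highest Lrp5 peak stood far below the highest Lrp6 peak at rank 3077, and whether the genes differ could not be tested.

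**Figure D2:**
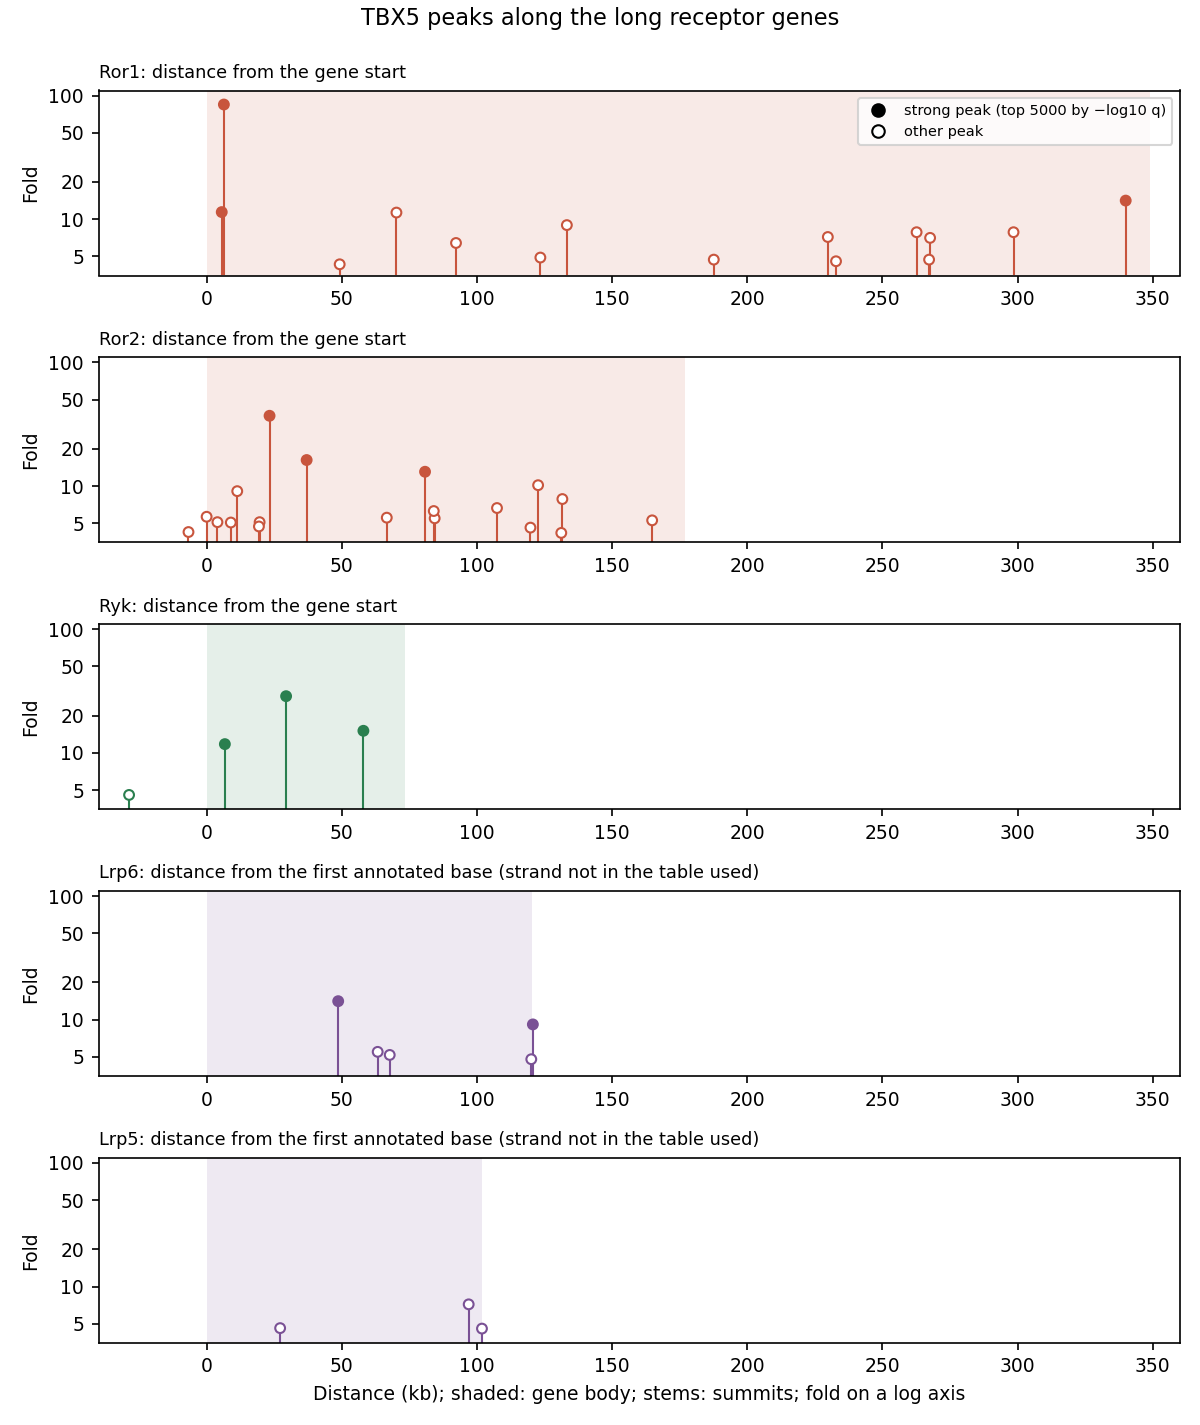
Summits of TBX5 peaks along Ror1, Ror2, Ryk, Lrp6 and Lrp5, by distance in kb (horizontal axis) and fold (vertical, log axis). The shaded band is the gene body and filled points are strong peaks. The highest points of Ror1 and Ror2 stand at 6.33 and 23.2 kb from the start, and the 3 strong peaks of Ryk are spread over its body.

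The Frizzled genes are short, with bodies of 3.35 to 5.75 kb, and most of their 18 peaks lay outside the body (13 of 18). Their median fold was 5.57 (range 4.24 to 17.9), and 2 peaks were strong, both at Fzd1. Fzd1, which encodes a receptor that responds to WNT7B in lung mesenchyme, had 4 peaks. One of its strong peaks, of 10.2-fold and 841 bp wide, covered the gene start on chromosome 5 from 4757755 to 4758595, with the summit 253 bp inside the gene. The other, of 17.9-fold (chromosome 5, 4662141 to 4662655), lay 91.5 kb beyond the far end of the gene, close to the limit of 100 kb. Beside it stood a peak of 5.18-fold at 92.2 kb, and another of 5.18-fold lay at 70.9 kb. A further peak nearest to Fzd1, of 6.13-fold, lay at 133 kb and was outside the limit. With a limit of 50 kb, only the peak at the start was left for Fzd1.

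Fzd2, a Frizzled of the branching lung epithelium, had 5 peaks with folds of 6.73, 7.80, 5.87, 5.72 and 4.24 in order of position. The first 4 lay 72 to 1113 bp from an end of the gene, which is 3.63 kb long (chromosome 11, 102604431 to 102608058). The highest lay 72 bp outside the first annotated base by coordinate, and the strand of Fzd2 was not in the promoter windows used here. Fzd7, which acts in stem cell compartments of several tissues, had 7 peaks and none inside its body (chromosome 1, 59482147 to 59486955). Its folds ran from 5.06 to 5.98 in 6 peaks, while the highest peak, of 9.46-fold, lay 1.94 kb beyond the gene. One Fzd7 peak stood at the start, 46 bp upstream, and another 533 bp upstream. The other 4 lay between 16.7 and 47.9 kb upstream. Fzd4, the receptor for the vascular ligand norrin as well as for Wnts, had only 2 weak peaks, of 5.40-fold and 5.18-fold, inside its body (chromosome 7, 89404366 to 89410110). Of these the first was nearer to an end of Tmem135 than to an end of Fzd4. No peak was listed for Fzd8, and the nearest listed peak, 234 kb away, lay at an end of Ccny.

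**Figure D3:**
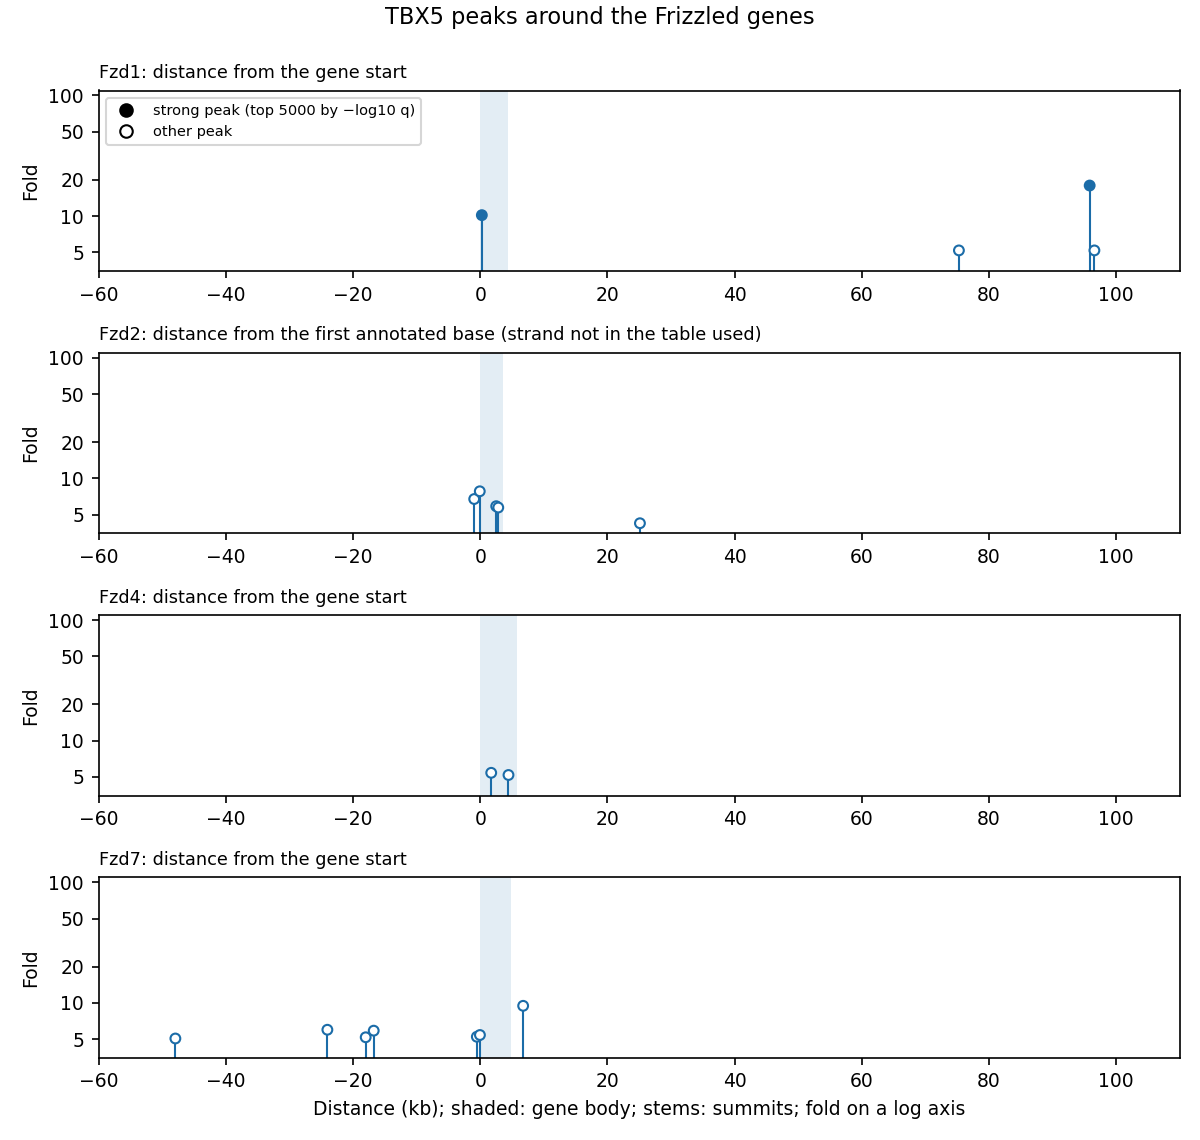
Summits of TBX5 peaks around Fzd1, Fzd2, Fzd4 and Fzd7, by distance in kb (horizontal axis) and fold (vertical, log axis). The shaded band is the gene body and filled points are strong peaks. Only Fzd1 has strong peaks, at its start (10.2-fold) and 91.5 kb beyond its far end (17.9-fold), and the peaks of Fzd2 gather at the gene.

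Peaks at gene ends were found at 6 of the 10 genes, Fzd1, Fzd2, Fzd7, Lrp5, Lrp6 and Ror2, against 20.6% of all protein-coding genes with a peak within 1 kb of an own end. These 10 peaks had a median fold of 5.68 (range 4.56 to 10.2), and 2 of them, at Fzd1 and Lrp6, were strong. They made up 15.6% of the peaks of the receptor genes (exact 95% Clopper-Pearson interval 7.76 to 26.9%), and 17.6% of all peaks lay within 1 kb of a protein-coding gene end. For 6 of the genes RefSeq promoter windows were at hand, from 250 bases before the gene start to 50 after it (GRCm38.p6, which mm10 is built on). These were Fzd1, Fzd4, Fzd7, Ror1, Ror2 and Ryk. Of their gene-end peaks, 4 of 4 were at the start and none at the other end. A peak overlapped the window in 3 of the 6, Fzd1, Ror2 and Fzd7, and 13.2% of all 32851 windows were overlapped by a peak.

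The 3 promoter windows that a peak overlapped are shown because they are the places where a TBX5 peak met the start of a receptor gene. Each is written 5′ to 3′ on the strand of the gene, with the bases inside the peak in capitals. The window of Fzd1 (chr5:4758167-4758466, minus strand) lay wholly inside its peak. Of the 300 bases, 221 lay in the peak at Ror2 (chr13:53286075-53286374, minus strand) and 183 in that at Fzd7 (chr1:59481897-59482196, plus strand).
Fzd1: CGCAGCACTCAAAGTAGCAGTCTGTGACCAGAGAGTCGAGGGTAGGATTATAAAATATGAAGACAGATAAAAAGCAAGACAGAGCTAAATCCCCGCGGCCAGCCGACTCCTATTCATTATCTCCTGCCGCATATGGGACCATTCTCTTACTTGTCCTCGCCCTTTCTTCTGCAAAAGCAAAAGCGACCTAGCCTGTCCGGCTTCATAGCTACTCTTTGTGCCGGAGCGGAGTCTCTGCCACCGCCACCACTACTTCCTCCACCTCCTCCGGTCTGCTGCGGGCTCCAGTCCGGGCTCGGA
Ror2: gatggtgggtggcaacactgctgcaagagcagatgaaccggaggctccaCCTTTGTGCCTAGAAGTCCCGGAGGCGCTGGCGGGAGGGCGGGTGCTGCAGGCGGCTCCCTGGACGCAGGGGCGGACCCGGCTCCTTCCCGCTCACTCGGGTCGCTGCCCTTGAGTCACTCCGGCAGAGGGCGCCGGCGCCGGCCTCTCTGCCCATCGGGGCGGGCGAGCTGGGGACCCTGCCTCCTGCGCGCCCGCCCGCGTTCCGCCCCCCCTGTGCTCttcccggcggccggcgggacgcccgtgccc
Fzd7: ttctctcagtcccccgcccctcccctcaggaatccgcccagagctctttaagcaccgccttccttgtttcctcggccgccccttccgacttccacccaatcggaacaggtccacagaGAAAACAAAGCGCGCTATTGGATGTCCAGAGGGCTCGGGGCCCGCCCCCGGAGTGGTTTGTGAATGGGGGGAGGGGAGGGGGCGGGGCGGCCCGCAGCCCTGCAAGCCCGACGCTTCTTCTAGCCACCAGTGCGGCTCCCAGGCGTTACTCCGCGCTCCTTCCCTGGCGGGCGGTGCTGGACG

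The windows of Ror2 and Fzd7 were rich in G and C (74.7% and 66.7%), and that of Fzd1 less so (54.0%), beside medians of 52.7% over all windows and 64.3% over windows with a peak. Motifs were searched on both strands. The core of the T-box site, GGTGTG, was in none of these 3 windows, and neither was the longer T-box form AGGTGTGA, which contains the core. GGTGTG was present in 19.0% of all windows and in 17.7% of the windows that a peak overlapped, and AGGTGTGA in 1.28% and 0.854%. Among the 6 receptor windows, only that of Ror1 held GGTGTG, 98 bases upstream of the start, and no peak overlapped that window. The GATA motif AGATAA stood in the Fzd1 window 2 times, starting 186 and 134 bases upstream of the start, once on each strand. Of all windows 11.2% held it, and of those with a peak 4.27%. The NKX2 motif TNAAGTG and the TCF/LEF motif CTTTGAT were in none of the 6 windows (in 11.5% and 3.73% of all windows). These matches describe the letters of 300 bases and do not bear on the strong peaks inside Ror1, Ror2 and Ryk, whose sequences were not used here.

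Long genes collect more peaks, so each number was divided by the length over which a summit would count for the gene, its body included, called its stretch. Together the 10 genes had 3.82 peaks per 100 kb of stretch (exact 95% Poisson interval 2.94 to 4.88), beside 1.29 over all protein-coding genes. Such a density is not particular to them: the lung mesenchyme markers had 5.32 and the planar polarity genes described below 3.13. The other Wnt pathway lists described below had 1.025 to 1.86. Markers of endothelium, lung epithelium and heart muscle had 1.75, 0.828 and 0.809. Fzd2 (8.88), Fzd7 (8.31) and Ror2 (7.21) had the highest densities, and their lower bounds of 2.88, 3.34 and 4.34 lay above 1.29. The 5 Fzd2 peaks include pairs with summits 875 and 324 bp apart, so its bound rests on peaks that are not independent. The count of Fzd7 depends on the rule, since 3 of its 7 peaks were left with a limit of 10 kb, and 3 when the ends of all annotated genes were used. Ror1 had a density of 3.57 with an interval of 1.998 to 5.89, so its lower bound also lay above 1.29. For Fzd1, Fzd4, Fzd8, Lrp5, Lrp6 and Ryk, with 0 to 5 peaks, the intervals included 1.29. The genes were chosen with earlier results known, so the intervals describe the counts and do not test any gene against 1.29. Peaks lie close together and are not independent, so these intervals are too narrow by an amount that was not measured. Set beside genes of like body length, 4 of the 5 short receptor genes had a peak and 1 a strong one. Of all genes with a body under 10 kb, 22.5% and 4.41% did. Of the 5 receptor genes with a body of 70 kb or more, all had a peak and 4 a strong one, where 77.1% and 34.3% of such genes did. These shares are not matched for stretch, whose median was 139.9 kb for the 10 genes and 48.7 kb over all protein-coding genes. Per 100 kb of stretch, the short receptor genes had 3.235 peaks, beside 1.095 in all genes with a body under 10 kb. The long ones had 4.109, beside 1.309 in all genes with a body of 70 kb or more.

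**Figure D4:**
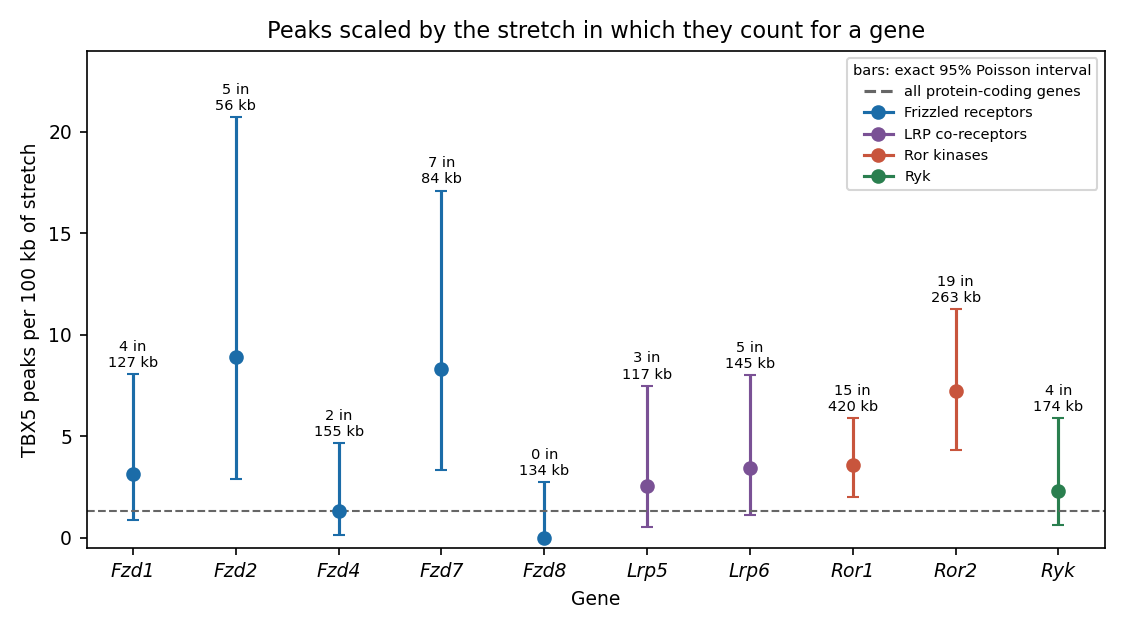
TBX5 peaks per 100 kb of the stretch in which a peak counts for a gene, for each of the 10 receptor genes, with exact 95% Poisson intervals (counting error only). The number of peaks and the length of the stretch stand above each bar, and the dashed line is the value over all protein-coding genes (1.29). Fzd2, Fzd7, Ror2 and Ror1 have intervals wholly above the line, but close peaks are not independent, so the intervals are too narrow.

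Most peaks of the receptor genes lay inside a gene body, 46 of 64 (71.9%, interval 59.2 to 82.4%), beside 52.2% of all peaks inside a protein-coding gene. The rule counts every peak inside a receptor gene but limits those outside to 100 kb, so this share follows in part from the rule. It also rests mainly on the Ror genes, with 32 of 34 peaks inside. Inside lay 6 of 8 peaks of the co-receptor genes, 3 of 4 of Ryk and 5 of 18 of the Frizzled genes. The 13 strong peaks included 10 that lay inside a gene but not within 1 kb of an end, 2 within 1 kb of an end and 1 outside at Fzd1. Inside and over 1 kb from an end lay 43 of the 64 peaks, and 11753 of 28381 in the whole list. The 13 strong peaks were 335 to 1109 bp wide with a median of 746 bp, while the other 51 had a median width of 241 bp. Position and width were not summarized for the strong peaks of the whole list, so neither is shown to be particular to these genes. Width and −log10 q both come from the same signal and are not separate measures.

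Peaks of the receptor genes often came in close groups. Another summit of the list lay within 1 kb of 20 of the 64 (31.2%, interval 20.2 to 44.1%), and of 16.9% of all peaks. There were 10 such pairs of neighbouring summits, in Ror2 (3 pairs), Ror1 and Fzd2 (2 each), and Fzd1, Fzd7 and Lrp6 (1 each). In the Ror1 pair next to the start the folds were 11.4 and 84.7. The Fzd1 pair beyond the far end had folds of 5.18 and 17.9, and the Lrp6 pair at the last base 4.78 and 9.15. The gaps between the edges of paired peaks were 62 to 424 bp. Within 10 kb, 70.3% of the peaks had another summit (57.6 to 81.1%), beside 50.1% of all peaks.

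The number of genes with a peak varied among other parts of the Wnt pathway, and no difference between the lists was tested. Over all protein-coding genes the shares were 41.7% for a peak and 11.9% for a strong one. Lists also differ in stretch, with medians of 74.0 kb for the other receptors, 69.1 kb for the ligands and 139.9 kb for the 10 genes. The medians were 111 kb in the beta-catenin branch, 148 kb in the planar polarity branch and 139.9 kb for receptor turnover and R-spondin signalling. Of 8 other Wnt receptors, 4 (50.0%) had a peak and 1 (12.5%) a strong one. That was Ptk7, a receptor-like protein of planar cell polarity, with 3 peaks and 20.7-fold at the strongest. Musk, the agrin-responsive kinase of muscle, had 2 peaks up to 7.53-fold, Fzd6 had 1 of 7.05-fold and Lrp4 1 of 5.68-fold, while Fzd3, Fzd5, Fzd9 and Fzd10 had none. Among the 19 Wnt ligand genes, 11 (57.9%) had a peak and 2 (10.5%) a strong one. These 2 were Wnt11 (8 peaks, 17.8-fold at the strongest) and Wnt2b (2 peaks, 17.7-fold).

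Downstream of the receptors, 12 of 14 genes of the beta-catenin branch had a peak and 5 a strong one. By −log10 q the strongest peaks of that branch lay at the TCF/LEF factor genes Tcf7 (−log10 q of 53.4, 14.3-fold) and Tcf7l2 (43.5, 13.4-fold). Higher folds but lower −log10 q were found at the feedback gene Axin2 (16.9-fold, 37.8) and at Lef1 (15.2-fold, 31.5), both named after their values were seen. In the planar polarity branch 9 of 13 had a peak and 6 a strong one, led in −log10 q by Prickle2 (14 peaks, 38.6-fold), a core polarity gene, and Daam2 (2 peaks, 36.8-fold), a formin that links Dishevelled to actin. Of 9 genes for receptor turnover and R-spondin signalling, 7 had a peak and 2 a strong one, the secreted agonists Rspo2 (9 peaks, 19.8-fold) and Rspo3 (4 peaks, 12.2-fold). The strongest peak of Prickle2 ranked 303 and that of Daam2 355, close to that of Ror2 at 283, and no gene of these lists had a peak as high as Ror1.

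**Figure D5:**
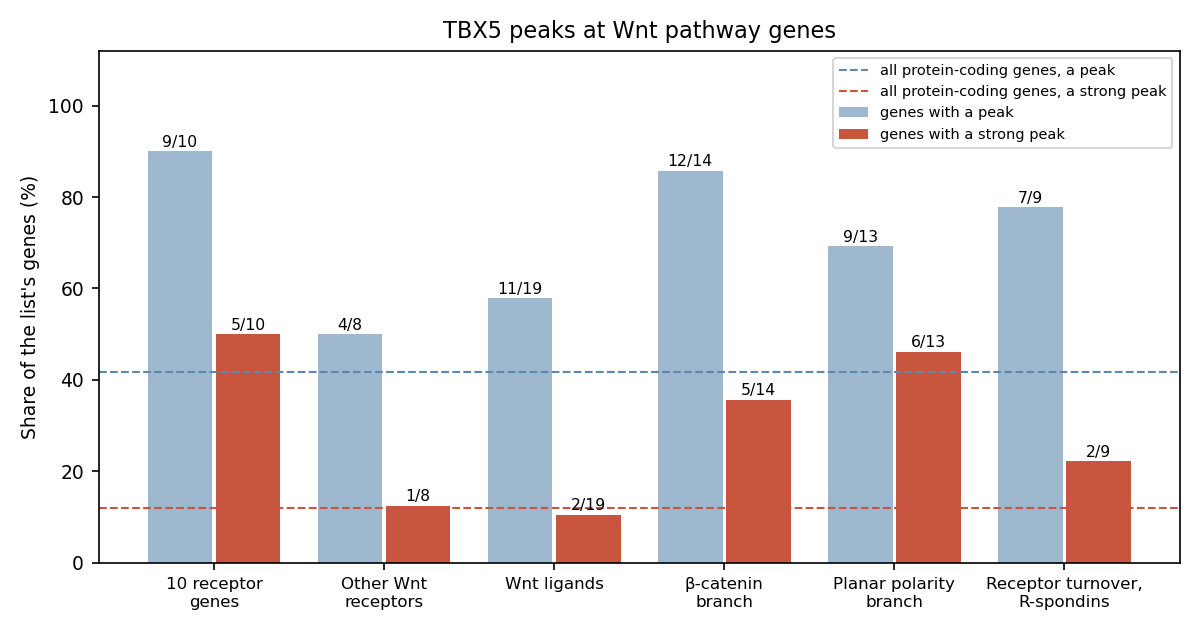
Share of genes (percent) with a TBX5 peak and with a strong TBX5 peak in the 10 receptor genes and in 5 other lists of Wnt pathway genes. Numbers above the bars are genes with such a peak over genes in the list, and dashed lines are the shares over all protein-coding genes (41.7% and 11.9%). The receptor genes stand at 9 of 10 and 5 of 10, the planar polarity branch at 9 of 13 and 6 of 13, and the Wnt ligands at 11 of 19 and 2 of 19.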

How the data were processed

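Peaks were read from 1 list deposited by the authors. Per the submitters' processing notes, the tools were Bowtie2, SAMtools and MACS2 and the build mm10. Versions, settings and any merging of libraries were not given in the sources used here. The deposited list gives, in the layout of MACS2, a fold enrichment, a −log10 q (and a −log10 p that was not used), a score and a summit offset for each peak. Its name says that blacklisted regions were removed. The deposited score equalled the integer part of 10 times −log10 q in 98.8% of peaks.

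Gene positions came from a RefSeq table (GRCm38.p6). Summits were assigned with Python 3.11.15 (pandas 2.3.3, NumPy 2.4.6, SciPy 1.17.1), and the assignment was checked against a direct search on made-up positions. Coordinates are 1-based. A peak inside several genes counted for each. The 5000 peaks with the highest −log10 q (at least 21.4) are called strong, and 50 peaks were tied at that value. A peak at a gene end has its summit within 1 kb. The members and lists were chosen with earlier results of these data known. All members were named, with the 2 genes of the strongest peak in each other list and all other Wnt receptors. Wnt5a, Axin2 and Lef1 were added after their values were seen. Alternatives were other distances, assignments, gene sets and rankings. The only sequences used were the RefSeq promoter windows.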

Additional observations from a re-analysis of the deposited data

How the results depend on the processing

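Of 41 alternative values for the counts and shares, 35 stayed within 1.5 times the reported count or within its interval. The other 6 came from the number of peaks kept or called strong. Of 89 alternative values for single genes, 16 moved further, also with distance or assignment. In the upper 50% of the list by −log10 q, the receptor genes had 29 peaks in place of 64 and a median of 2 per gene in place of 4.5, and Ror2 had 7 in place of 19, Ror1 9 in place of 15. With that part called strong, 8 genes had a strong peak and 45.3% of the peaks were strong, beside about 50% of all peaks by definition. With the 1000 highest of the 28381 peaks called strong, 3 genes had one, and 4.69% of the peaks were strong. The shares of all protein-coding genes at these other cutoffs were not computed. Limits of 10 kb, 50 kb and 1 Mb gave 55, 61 and 72 peaks. At 10 kb Fzd7 had 3 in place of 7 and Fzd1 1 in place of 4, and at 50 kb Fzd1 had 1. With 5-fold or more 50 were left, of which Lrp5 had 1 in place of 3. With the ends of all annotated genes 56 were left, of which Fzd7 had 3. By nearest gene end only, Fzd4 had 1 in place of 2. With a limit of 1 Mb, Fzd8 had 4 peaks and Fzd1 8. The number of genes with a strong peak was 5 under each of the 6 alternatives for distance or assignment and with the 5000 highest folds. The share at gene ends ran from 10.9% (window of 500 bp) to 25.0% (5 kb). No library could be left out, since the list gives no value per library. No paired analysis was possible because the list gives no value per library and holds no test. The unknown depth sets which weak peaks were listed, so an absent peak, as at Fzd8, is one that was not called.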

Other observations

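Non-coding genes stood at 6 of the 64 peaks, with the summit inside them or within 1 kb of their ends. The same count was not made over the whole list, so whether 6 of 64 is many or few is unknown. The peak at the Ror2 start (5.64-fold) had its summit 2 bp from the first base of the long non-coding RNA gene Gm33574, which lies beside Ror2 on the upstream side and also held the weaker peak of 4.24-fold upstream of Ror2. The peak at the last annotated base of Lrp5 (4.56-fold) had its summit 96 bp from an end of Gm36672, and a Fzd7 peak of 5.98-fold lay inside Gm33774. At Ror1, a peak of 4.31-fold lay inside Gm12701 and one of 7.84-fold lay 830 bp from an end of Gm35760. Which of the paired genes such a peak belongs to cannot be told from position. Wnt5a, the best known ligand of ROR1 and ROR2, had 1 peak of 5.07-fold, ranked 21206.

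The values of the list fall on few steps. Of the 28381 peaks, 27233 (96.0%) shared both their fold and their −log10 q exactly with at least 1 other peak, and the list held 2617 different pairs of these values. The most common pair, a fold of 5.18 with a −log10 q of 4.74, was shared by 1048 peaks. These included 5 peaks of the receptor genes, 2 at Fzd1 and 1 each at Fzd4, Fzd7 and Lrp6. Of the strong peaks 85.1% were tied in this way, and 60 of the 64 receptor peaks. The smallest width, 189 bp, was shared by 2450 peaks (8.63%) and by 7 of the receptor peaks. The values of the strongest Ryk peak were shared by 15 peaks and those of the strongest Fzd1 peak by 55, each peak itself included. The rank given for a tied peak is the best rank of its tie. Order among weak peaks, and within ties of strong peaks, is therefore not resolved by these values.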
